A study of Homo sapiens with 45 samples.

Results

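The 10 genes described here encode chaperones of the heat shock system: the HSP70 proteins HSPA1A, HSPA1B and HSPA8, the HSP70 exchange factor HSPH1, the J-domain proteins DNAJA1 and DNAJB1, the HSP90 proteins HSP90AA1 and HSP90AB1, and the mitochondrial chaperonin HSPD1 with its lid HSPE1. They were chosen by symbol and make up 10 of the 38557 gene rows in each of 2 deposited expression tables. All 10 were found in both tables, and all 10 passed the filter on low values in both.

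Chaperones of this kind keep proteins soluble and help them fold. A J-domain protein hands an unfolded client to HSP70 and stimulates its ATPase, HSPH1 resets HSP70 by nucleotide exchange, and HSP90 takes clients such as the T-cell kinase LCK through their last folding steps, while HSPD1 and HSPE1 form a closed folding cage in the mitochondrial matrix. Under proteotoxic stress the transcription factor HSF1 binds heat shock elements, inverted repeats of GAA and TTC units, and raises transcription of most of these genes.

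The study measured polyadenylated RNA in 4 human lines of T-cell acute lymphoblastic leukaemia (Jurkat, CCRF-CEM, KOPT-K1 and TALL-1) in which the chromatin remodelling complex cBAF was depleted or inhibited. It has 45 libraries in 15 groups, with 3 libraries labelled as biological replicates in each group. Jurkat cells that express Cas9 received guides by lentivirus against the control locus AAVS1 (gAAVS1), against ARID1A (gARID1A), against ARID1A with ARID1B (gARID1A_1B), against SMARCA4 (gSMARCA4) or against SMARCA4 with SMARCA2 (gSMARCA4_A2). All 5 guide groups, the control included, had 4 days of puromycin and were collected 10 days after transduction. ARID1A and ARID1B are alternative subunits that define cBAF, and SMARCA4 and SMARCA2 are its alternative ATPases. The other Jurkat groups had 1 uM of BRM014, an inhibitor of both ATPases, or 0.01% DMSO for 6 h or 8 d. The other lines had the inhibitor or DMSO at the same doses for 6 h. No heat shock group was analysed here.

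Library depth ran from 29.7 to 47.9 M (1e+06) reads in Jurkat and from 19.7 to 27.0 M in the remaining lines. SMARCA4 averaged 97.5 TPM (transcripts per 1e+06) with gAAVS1, 44.2 with gSMARCA4 and 49.9 with gSMARCA4_A2, and ARID1B fell from 22.7 to 11.9 TPM in gARID1A_1B. ARID1A, at 94.4 TPM with gAAVS1, was at 83.1 TPM in gARID1A and 101 TPM in gARID1A_1B, and SMARCA2 was at 21.8 TPM with gAAVS1 and 22.4 TPM in gSMARCA4_A2, so RNA gives no check of the depletion of these 2 targets. Of 12 T-lineage markers 9 were in the tables, and all 9 reached a median of 1 TPM in both, with a sum of 1446 to 2247 TPM in Jurkat and 2985 to 4098 TPM in the remaining lines. Summed myeloid markers stayed at or below 0.966 TPM in every library. DMSO 8 d replicate 1 of Jurkat stood apart, for the chaperones and beyond them. It was the lowest of its group for 10 of 10 members, at 46.6% (HSPA8) to 73.0% (HSPA1A) of the mean of the other 2 libraries. Over all tested genes it was the lowest for 24.3% and the highest for 53.1%. In TALL-1, DMSO replicate 3 also differed from its group over all genes. Its reads had a chi-square per degree of freedom of 48.0 and 47.2 against replicates 1 and 2, which had 3.43 between them. For the members its median log2 gap to the other 2 libraries was -0.046.

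Heat shock element letters were looked for in the RefSeq promoter windows of GRCh38.p14, from 250 bases before to 50 bases after each annotated start. A pair of units was written as GAANNTTC or TTCNNGAA and a triplet as GAANNTTCNNGAA or TTCNNGAANNTTC, and these forms cover both strands. Of the 10 members, 8 had a pair and 5 had a triplet, against 16.2% and 0.608% of 27305 genes with a window. HSPH1 and HSPE1 had neither in this window. The matches are shown because they are the letters by which HSF1 targets are recognised, with the pair or triplet in capitals, and a match is a description of sequence and not a measured binding site. HSPA1A and HSPA1B lie side by side on the plus strand of chromosome 6, at 31815543 to 31817942 and 31827738 to 31830254, and 131 of 135 aligned bases upstream of their starts were identical. The capitals begin 106 bases before the start of HSPA1A and 105 bases before that of HSPA1B.
HSPA1A, chr6:31815327-31815461, plus strand: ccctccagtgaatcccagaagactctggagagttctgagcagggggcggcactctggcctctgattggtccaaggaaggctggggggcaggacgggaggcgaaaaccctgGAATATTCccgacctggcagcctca
HSPA1B, chr6:31827523-31827657, plus strand: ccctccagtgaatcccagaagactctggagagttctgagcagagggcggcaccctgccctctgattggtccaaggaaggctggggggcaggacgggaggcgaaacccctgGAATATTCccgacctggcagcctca

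The triplets of the 5 members that had them are set out next, with the distance of the first capital from the annotated start. HSPA8 had them 230 and 55 bases before the annotated start used here, and both lay within the annotated span of the gene. DNAJA1 had 1 at base 4 of its first exon. In HSP90AA1 and HSP90AB1 the triplets lay before internal annotated starts, 88 bases before the second start of HSP90AA1 and 165 and 112 bases before the third start of HSP90AB1. In HSPD1 the capitals mark a run of 18 bases in which both triplet forms overlap. It begins 245 bases before the second annotated start and lies within the annotated span of HSPD1 and, in the GENCODE annotation, also of HSPE1. HSPD1 and HSPE1 are transcribed in opposite directions on chromosome 2, with 104 bases between their RefSeq starts.
HSPA8, chr11:123062346-123062374, minus strand: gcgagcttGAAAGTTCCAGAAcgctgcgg
HSPA8, chr11:123062171-123062199, minus strand: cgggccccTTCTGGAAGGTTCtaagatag
DNAJA1, chr9:33025268-33025296, plus strand: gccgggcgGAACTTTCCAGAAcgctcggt
HSP90AA1, chr14:102087112-102087140, minus strand: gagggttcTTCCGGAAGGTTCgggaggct
HSP90AB1, chr6:44247770-44247798, plus strand: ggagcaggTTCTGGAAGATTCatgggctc
HSP90AB1, chr6:44247823-44247851, plus strand: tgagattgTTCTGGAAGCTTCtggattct
HSPD1, chr2:197500062-197500090, minus strand: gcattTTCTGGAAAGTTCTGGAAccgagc

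Several of the 10 genes were among the most abundant transcripts. Ranked among 38557 genes by median TPM over the libraries of a table, HSPA8 stood 25th, HSP90AA1 26th, HSP90AB1 31st, HSPD1 49th and HSPE1 99th in Jurkat, and HSPA8 stood 15th and HSP90AA1 28th over the 3 remaining lines pooled. HSPH1 and DNAJB1 stood 1232nd and 1036th in Jurkat. In DMSO at 6 h, HSPA8 averaged 4479 ± 397 TPM (SD, n = 3, as for all group means) in Jurkat, 5935 ± 1557 in CCRF-CEM, 5506 ± 573 in KOPT-K1 and 3095 ± 243 in TALL-1. The J-domain genes and HSPH1 were lower, with DNAJA1 between 212 and 908 TPM, DNAJB1 between 71.4 and 281 TPM and HSPH1 between 58.3 and 389 TPM over all libraries. Under DMSO at 6 h the 10 genes together took 1.48% of TPM in Jurkat, 1.77% in CCRF-CEM and 1.07% in TALL-1, with KOPT-K1 between the last 2.

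The stress-induced HSP70 genes were at the other end of the scale. HSPA1A lay between 0.880 and 5.02 TPM in Jurkat and between 6.85 and 28.4 TPM in the remaining lines, and HSPA1B between 1.37 and 7.90 TPM and between 12.5 and 28.8 TPM. The deposited tables give these genes lengths of 12000 and 12586 bases, 5.00 times their RefSeq spans of 2400 and 2517 bases, so their TPM is low relative to the other members and is compared here only within each gene. The counts behind these values were not small: HSPA1A had at least 140 reads in each Jurkat library and 622 in each library of the other lines. HSPA1A and HSPA1B are near-identical copies, and how reads that fit both were counted is not given in the sources used here, so the 2 are read together.

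**Figure D1:**
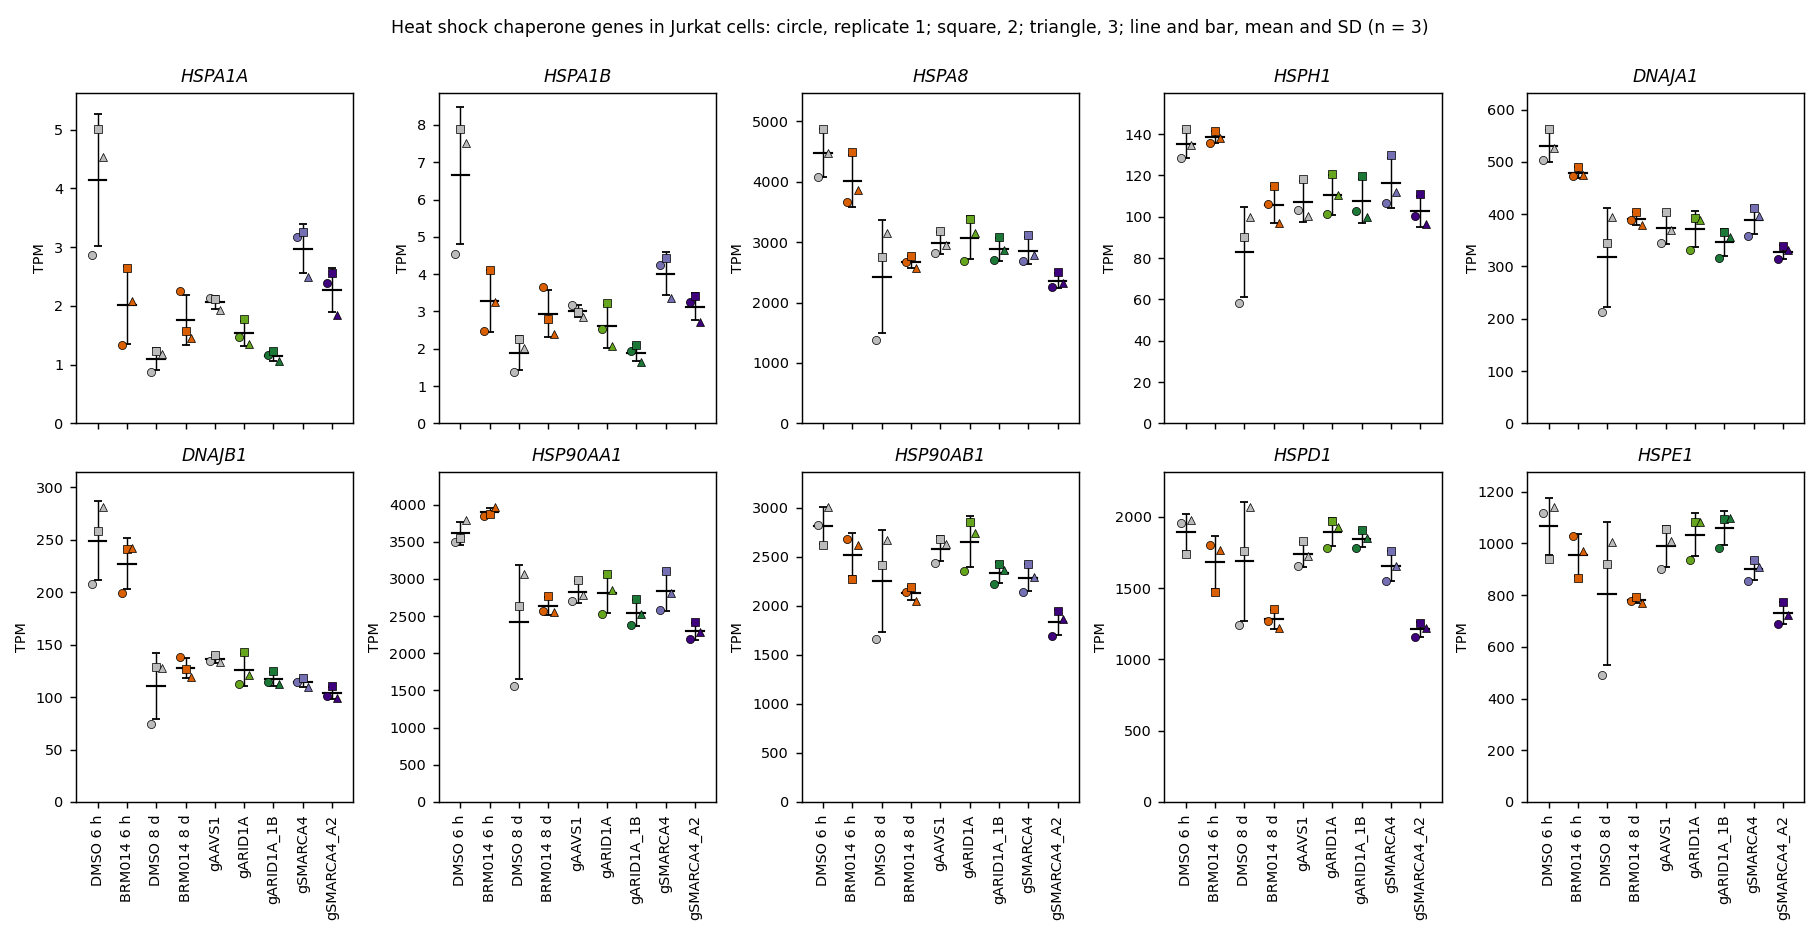
TPM of each of the 10 genes on a linear axis in the 27 Jurkat libraries, by group, with 1 point per library. Lines mark the group mean and bars the SD. DMSO 8 d replicate 1 is the lowest point of its group in every panel, and the DMSO 6 h group is high for HSPA1A, HSPA1B and DNAJB1.

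Before the treatments are compared, the DMSO groups show how far these genes differ without BRM014. Jurkat cells after 8 d of DMSO had lower chaperone levels than after 6 h: 9 of 10 members were lower, against 18.7% of all 17936 genes tested. The 2 groups are separate cultures at separate times, and culture conditions cannot be told apart from time. HSPA1A went from 2.87, 5.02 and 4.53 TPM at 6 h to 0.880, 1.24 and 1.17 TPM at 8 d, with no overlap. DNAJB1, which hands clients to HSP70, went from 208, 259 and 281 TPM to 74.8, 129 and 128 TPM, also with no overlap. On the log2(TPM + 1) scale, on which all fold changes here are given, HSPA1A fell by 1.27 (SE 0.16, adjusted p = 5.5e-06 by limma), HSPA1B by 1.39, DNAJB1 by 1.19 and HSPA8 by 0.96. HSPD1 was the member not called, at -0.19 (adjusted p = 0.22). Without DMSO 8 d replicate 1, HSP90AB1 (-0.15, adjusted p = 0.21) and HSPE1 (-0.14, adjusted p = 0.25) were not called either. A fit of these 2 groups alone called 3 of 10 members (HSPA1A, HSPA1B and DNAJB1), with HSPA8 at an adjusted p of 0.086 and HSPH1 at 0.057. Of all genes that fit called 11.5%, with 6.67% lower.

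The 3 other lines also differed from each other in DMSO. In KOPT-K1 against CCRF-CEM, 4 of 10 members were called, against 62.5% of 16241 genes tested: HSP90AA1 was lower by 0.96 (SE 0.13, adjusted p = 1.0e-05), HSPA1A and HSPA1B were lower, and HSPE1 was higher by 0.44. HSP90AA1 had 5597, 6151 and 4656 TPM in CCRF-CEM and 2872, 2939 and 2555 TPM in KOPT-K1. In TALL-1 7 of 10 members were lower than in CCRF-CEM (all genes, 35.0% lower) and 7 of 10 were lower than in KOPT-K1 (all genes, 35.1% lower). HSPD1 had the lowest levels there, with 752, 738 and 720 TPM in TALL-1, 1359, 1530 and 1380 TPM in CCRF-CEM and 1491, 1467 and 1309 TPM in KOPT-K1. It differed by -0.95 from both lines (SE 0.07, adjusted p = 1.3e-08 and 1.2e-08), while HSPA1A was higher in TALL-1 than in KOPT-K1 by 0.92 (adjusted p = 0.0058). Without the third pair of CCRF-CEM, which is described with the treatments, all 10 members were lower in TALL-1 than in CCRF-CEM. Of all genes 35.1% were lower in that fit.

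In Jurkat cells, 6 h of BRM014 lowered the 2 stress-induced HSP70 genes, and the fit without a replicate block called no other member. HSPA1A went from 2.87, 5.02 and 4.53 TPM with DMSO to 1.33, 2.64 and 2.08 TPM with BRM014. HSPA1B went from 4.53, 7.90 and 7.51 TPM to 2.47, 4.12 and 3.26 TPM. For both genes the highest treated library lay below the lowest DMSO library. HSPA1A fell by 0.77 (SE 0.16, 95% interval -1.09 to -0.45, adjusted p = 0.00031) and HSPA1B by 0.82 (SE 0.17, interval -1.18 to -0.47, adjusted p = 0.00042). With 2 of 10 members lower, the share was close to the 20.7% of all genes that were lower, and 47.4% of all genes were called in either direction.

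The other 8 members were not called at 6 h in Jurkat without a replicate block, and most of them were called with it. HSPA8, the housekeeping HSP70, had 4086, 4880 and 4470 TPM with DMSO and 3671, 4497 and 3865 TPM with BRM014, and the groups overlapped. Its change was -0.16 (interval -0.55 to 0.23). The other uncalled members lay between -0.17 (HSPD1, interval -0.42 to 0.07, adjusted p = 0.24) and 0.11 (HSP90AA1, interval -0.20 to 0.42, adjusted p = 0.59). DNAJA1 had 503, 564 and 527 TPM with DMSO and 473, 491 and 474 TPM with BRM014, which do not overlap, yet its change of -0.15 (SE 0.14) was not called. HSP90AA1 did not overlap either, at 3494, 3554 and 3792 TPM against 3849, 3868 and 3963 TPM. Values of 4 of 10 members did not overlap, against 53.2% of all genes. With the replicate number as a block, HSPA8, HSPD1, HSPE1, HSP90AB1 and DNAJA1 were called lower (limma, adjusted p of 0.017 to 0.026). HSP90AA1 was called higher in that fit (adjusted p = 0.047), which called 47.8% of all genes.

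After 8 d the calls in Jurkat depended on which libraries entered the fit. In the fit of all libraries 5 of 10 members were called, 4 higher and 1 lower, against 59.9% of all genes called, 36.9% higher and 23.0% lower: HSPA1A (0.39, SE 0.16, adjusted p = 0.036), HSPA1B (0.45, SE 0.17, adjusted p = 0.026), HSPH1 (0.38, SE 0.13, adjusted p = 0.018) and DNAJA1 (0.35, SE 0.14, adjusted p = 0.037) were higher with BRM014 and HSPD1 was lower (-0.37, SE 0.12, adjusted p = 0.011). HSPA1A had 0.880, 1.24 and 1.17 TPM with DMSO and 2.25, 1.57 and 1.46 TPM with BRM014, and these groups did not overlap. Of the 10 members HSPA1A and HSPA1B did not overlap, 2 of 10 against 58.8% of all genes. DNAJA1 had 212, 344 and 395 TPM with DMSO and 389, 404 and 380 TPM with BRM014, and HSPH1 had 58.3, 89.97 and 100.02 TPM and 106, 115 and 96.7 TPM. Both overlapped, and the low value in each DMSO group is replicate 1.

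Without DMSO 8 d replicate 1, none of the 4 increases was called: HSPA1A stood at 0.31 (adjusted p = 0.13), HSPA1B at 0.32 (adjusted p = 0.14), HSPH1 at 0.15 (adjusted p = 0.19) and DNAJA1 at 0.08 (adjusted p = 0.40). HSPD1, the chaperonin subunit, remained lower at -0.57 (SE 0.08, adjusted p = 5.4e-06), with 1241, 1759 and 2067 TPM with DMSO and 1270, 1352 and 1222 TPM with BRM014. HSP90AB1 (-0.26, SE 0.08, adjusted p = 0.013) and HSPE1 (-0.30, SE 0.09, adjusted p = 0.0060) were then called lower as well. HSPE1 had stood at 0.02 with all libraries. HSPD1 in turn was not called without DMSO 8 d replicate 3 (-0.21, adjusted p = 0.11), and HSPA1A was not called without BRM014 8 d replicate 1 (0.26, adjusted p = 0.19) nor HSPA1B (0.33, adjusted p = 0.14). DNAJA1 also lost its call without any 1 of the BRM014 8 d libraries (adjusted p of 0.057 to 0.092), HSPH1 without BRM014 8 d replicate 2 (adjusted p = 0.076) and HSPA1A without DMSO 8 d replicate 3 (adjusted p = 0.051). DNAJB1 was called higher without DMSO 8 d replicate 2 (0.38, adjusted p = 0.049), and HSPA8 (0.45, adjusted p = 0.038) and HSP90AA1 (0.38, adjusted p = 0.024) without DMSO 8 d replicate 3. After median-ratio rescaling HSPD1 was the 1 member still called.

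The response of the stress-induced HSP70 genes differed between 6 h and 8 d. The 8 d effect minus the 6 h effect was 1.16 for HSPA1A (SE 0.22, adjusted p = 0.00019) and 1.28 for HSPA1B (SE 0.24, adjusted p = 0.00018), and DNAJA1 was called at 0.49 (SE 0.20, adjusted p = 0.048). That makes 3 of 10 members, against 44.2% of all genes. Under DMSO these 2 HSP70 genes were themselves lower at 8 d than at 6 h, and under BRM014 HSPA1A stood at 2.02 ± 0.66 TPM at 6 h and 1.76 ± 0.43 TPM at 8 d, so the treated groups lay close together and the DMSO groups far apart. Without DMSO 8 d replicate 1, DNAJA1 was not called (0.23, adjusted p = 0.098) and HSPD1 was (-0.40, adjusted p = 0.0061). DNAJA1 lost its call in 10 of 12 fits with 1 library left out.

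**Figure D2:**
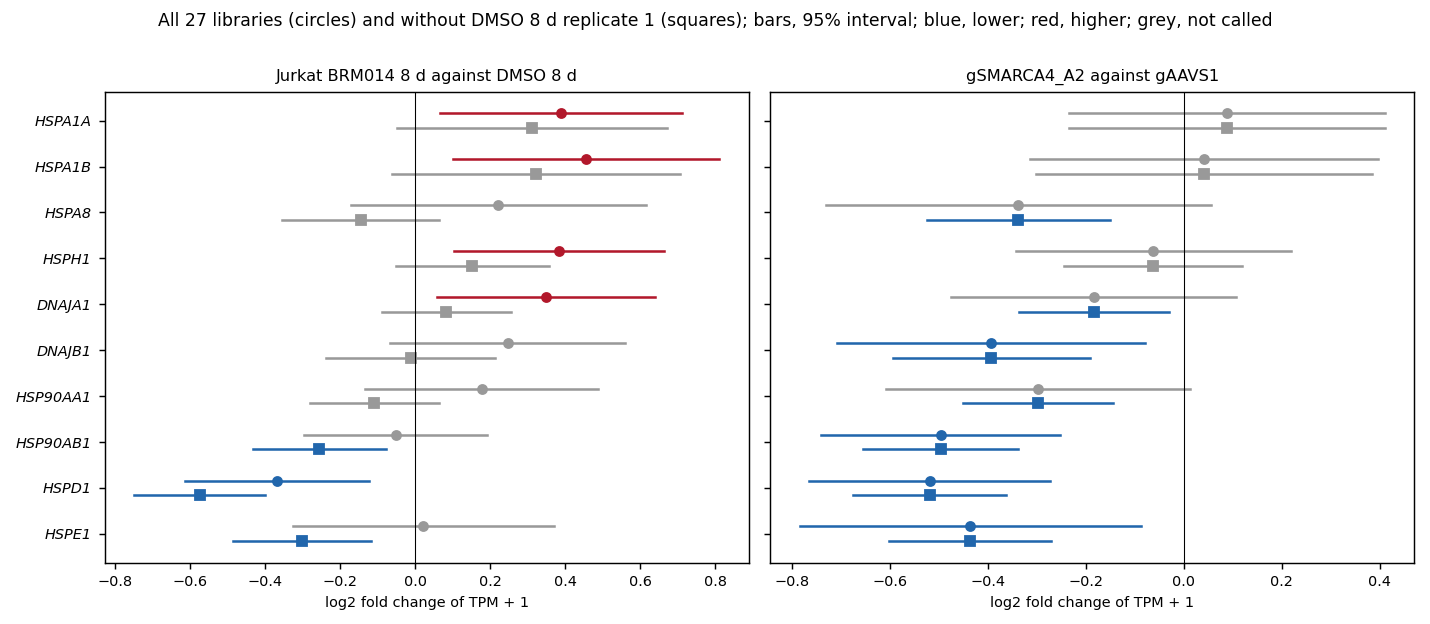
Log2 fold change of each gene with BRM014 at 8 d in Jurkat, with all libraries and without DMSO 8 d replicate 1, with 95% intervals. HSPH1 moves from 0.38 to 0.15 and DNAJA1 from 0.35 to 0.08, while HSPD1 moves from -0.37 to -0.57.

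Guides against ARID1A alone left all 10 members uncalled in the fit without a replicate block, against 20.9% of all genes called, 7.72% higher and 13.2% lower. By limma 0 of 10 had an unadjusted p under 0.05, and limma-voom on recovered reads called 0. Changes ran from -0.27 (HSPA1A, interval -0.60 to 0.05, adjusted p = 0.23) to 0.12 (HSPD1, interval -0.12 to 0.37, adjusted p = 0.51). HSPA1A had 2.13, 2.12 and 1.93 TPM with gAAVS1 and 1.48, 1.77 and 1.35 TPM with gARID1A, with no overlap. It was the only member without overlap, against 39.3% of all genes.

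With guides against ARID1A and ARID1B, the 2 stress-induced HSP70 genes were lower, and the other 8 members were not called in the fit without a replicate block. HSPA1A had 1.17, 1.23 and 1.06 TPM in gARID1A_1B, all below the lowest gAAVS1 library at 1.93 TPM. HSPA1B had 1.93, 2.10 and 1.64 TPM against 3.18, 2.98 and 2.86 TPM with gAAVS1. HSPA1A fell by 0.51 (SE 0.16, adjusted p = 0.012) and HSPA1B by 0.47 (SE 0.17, adjusted p = 0.032). At these low TPM the added 1 understates the change: with a pseudocount of 0.1, HSPA1A stood at -0.79 here, at 0.62 with BRM014 at 8 d and at 0.91 in gSMARCA4_A2 against gARID1A_1B. The 2 of 10 members compare with 23.1% of all genes lower and 40.0% called, and 4 of 10 members did not overlap (DNAJB1 and HSP90AB1 being the others), against 53.7% of all genes. HSPA1B lost its call when any of 5 libraries was left out (gAAVS1 replicate 1, 2 or 3 or gARID1A_1B replicate 1 or 3), with an adjusted p of 0.053 to 0.11. Set against gARID1A, no member was called (0 at an unadjusted p under 0.05, 0 by limma-voom), against 20.9% of all genes (10.3% higher and 10.6% lower). HSPA1A stood at -0.23 (interval -0.56 to 0.09) and was the 1 member without overlap, against 40.2% of all genes.

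With guides against SMARCA4 alone no member was called in the fit without a replicate block, against 40.9% of all genes. HSPA1A pointed upward, with 3.17, 3.26 and 2.49 TPM against 2.13, 2.12 and 1.93 TPM with gAAVS1 and no overlap. Its change was 0.37 (SE 0.16, adjusted p = 0.060), the only member at an unadjusted p under 0.05, and limma-voom on recovered reads called it (0.49, adjusted p = 0.042). DNAJB1 had 115, 118 and 109 TPM against 134, 141 and 134 TPM, at -0.25 (adjusted p = 0.20). It was called lower (adjusted p = 0.040) once DMSO 8 d replicate 1, which is in neither group but adds to the spread shared over the fit, was left out.

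Guides against SMARCA4 and SMARCA2 together lowered 4 of 10 members: DNAJB1, HSP90AB1, HSPD1 and HSPE1. The share compares with 21.1% of all genes lower and 62.1% called. HSP90AB1, the constitutive cytosolic HSP90, went from 2435, 2682 and 2630 TPM with gAAVS1 to 1691, 1943 and 1861 TPM and fell by 0.50 (SE 0.12, adjusted p = 0.00096). HSPD1 went from 1659, 1832 and 1723 TPM to 1157, 1258 and 1221 TPM and fell by 0.52 (SE 0.12, adjusted p = 0.00068). HSPE1, its lid, went from 900.4, 1055 and 1010.1 TPM to 689.9, 775 and 724 TPM and fell by 0.44 (SE 0.17, adjusted p = 0.029), and DNAJB1 went from 134, 141 and 134 TPM to 101, 110 and 99.6 TPM and fell by 0.39 (SE 0.15, adjusted p = 0.029). None of these 4 pairs of groups overlapped. RNA of 64 replication-dependent histone genes, which mostly lacks a poly(A) tail, took 0.0241% to 0.0293% of TPM in gSMARCA4_A2, above 0.00845% to 0.00849% with gAAVS1 and 0.0128% to 0.0145% in gSMARCA4. It was also higher with BRM014 than with DMSO, without overlap, in Jurkat at 6 h (0.00878% to 0.00907% against 0.00663% to 0.00806%), in Jurkat at 8 d (0.0107% to 0.0111% against 0.00580% to 0.00637%) and in CCRF-CEM (0.0313% to 0.0315% against 0.0247% to 0.0267%). Its part in these results was not tested.

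HSPA8 (-0.34, adjusted p = 0.13), HSP90AA1 (-0.30, adjusted p = 0.090) and DNAJA1 (-0.18, adjusted p = 0.26) did not overlap with gAAVS1 either, which makes 7 of 10 members against 69.2% of all genes. With DMSO 8 d replicate 1 left out of the fit all 3 were called lower, with adjusted p of 0.0026, 0.0014 and 0.035 in that order. HSPA1A (0.09, interval -0.23 to 0.41) and HSPA1B (0.04, interval -0.31 to 0.40) were not called. The median change of the 10 members was -0.32, against 0.11 for all genes, and rescaling the libraries by median ratios moved the median of all genes to -0.03 and called 7 members lower. DNAJB1 lost its call without any 1 of 5 libraries (gAAVS1 replicate 1, 2 or 3 or gSMARCA4_A2 replicate 1 or 3), and HSPE1 without any 1 of 4 (gAAVS1 replicate 2 or 3 or gSMARCA4_A2 replicate 1 or 3). The adjusted p was then 0.052 to 0.075 and 0.060 to 0.089.

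Directly compared with gSMARCA4, the double group had all 10 members below 0, and HSP90AB1 (-0.32, SE 0.12, adjusted p = 0.035) and HSPD1 (-0.45, SE 0.12, adjusted p = 0.0051) were called, 2 of 10 against 38.8% of all genes (12.3% lower). Values of 6 of 10 members did not overlap, against 54.4% of all genes. HSPD1 had 1549, 1763 and 1655 TPM in gSMARCA4 and did not overlap. Without DMSO 8 d replicate 1 in the fit, HSPA8, DNAJA1, HSP90AA1 and HSPE1 were called lower too, with adjusted p of 0.019, 0.012, 0.0028 and 0.0046. HSP90AB1 lost its call when gSMARCA4 replicate 2 or 3 or gSMARCA4_A2 replicate 1 or 3 was left out, with an adjusted p of 0.060 to 0.14.

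Between the groups with 2 guide targets, some members were called higher and others lower. Against gARID1A_1B, gSMARCA4_A2 had higher HSPA1A (0.60, SE 0.16, adjusted p = 0.0024) and HSPA1B (0.51, SE 0.17, adjusted p = 0.014). It had lower HSP90AB1 (-0.35, SE 0.12, adjusted p = 0.014), HSPD1 (-0.61, SE 0.12, adjusted p = 0.00018) and HSPE1 (-0.54, SE 0.17, adjusted p = 0.0098). That is 5 of 10 members, 2 higher and 3 lower, against 57.1% of all genes called, 43.2% higher and 14.0% lower. HSPD1 had 1784, 1908 and 1851 TPM in gARID1A_1B and 1157, 1258 and 1221 TPM in gSMARCA4_A2, and HSPA1A had 1.17, 1.23 and 1.06 TPM and 2.39, 2.57 and 1.84 TPM.

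**Figure D3:**
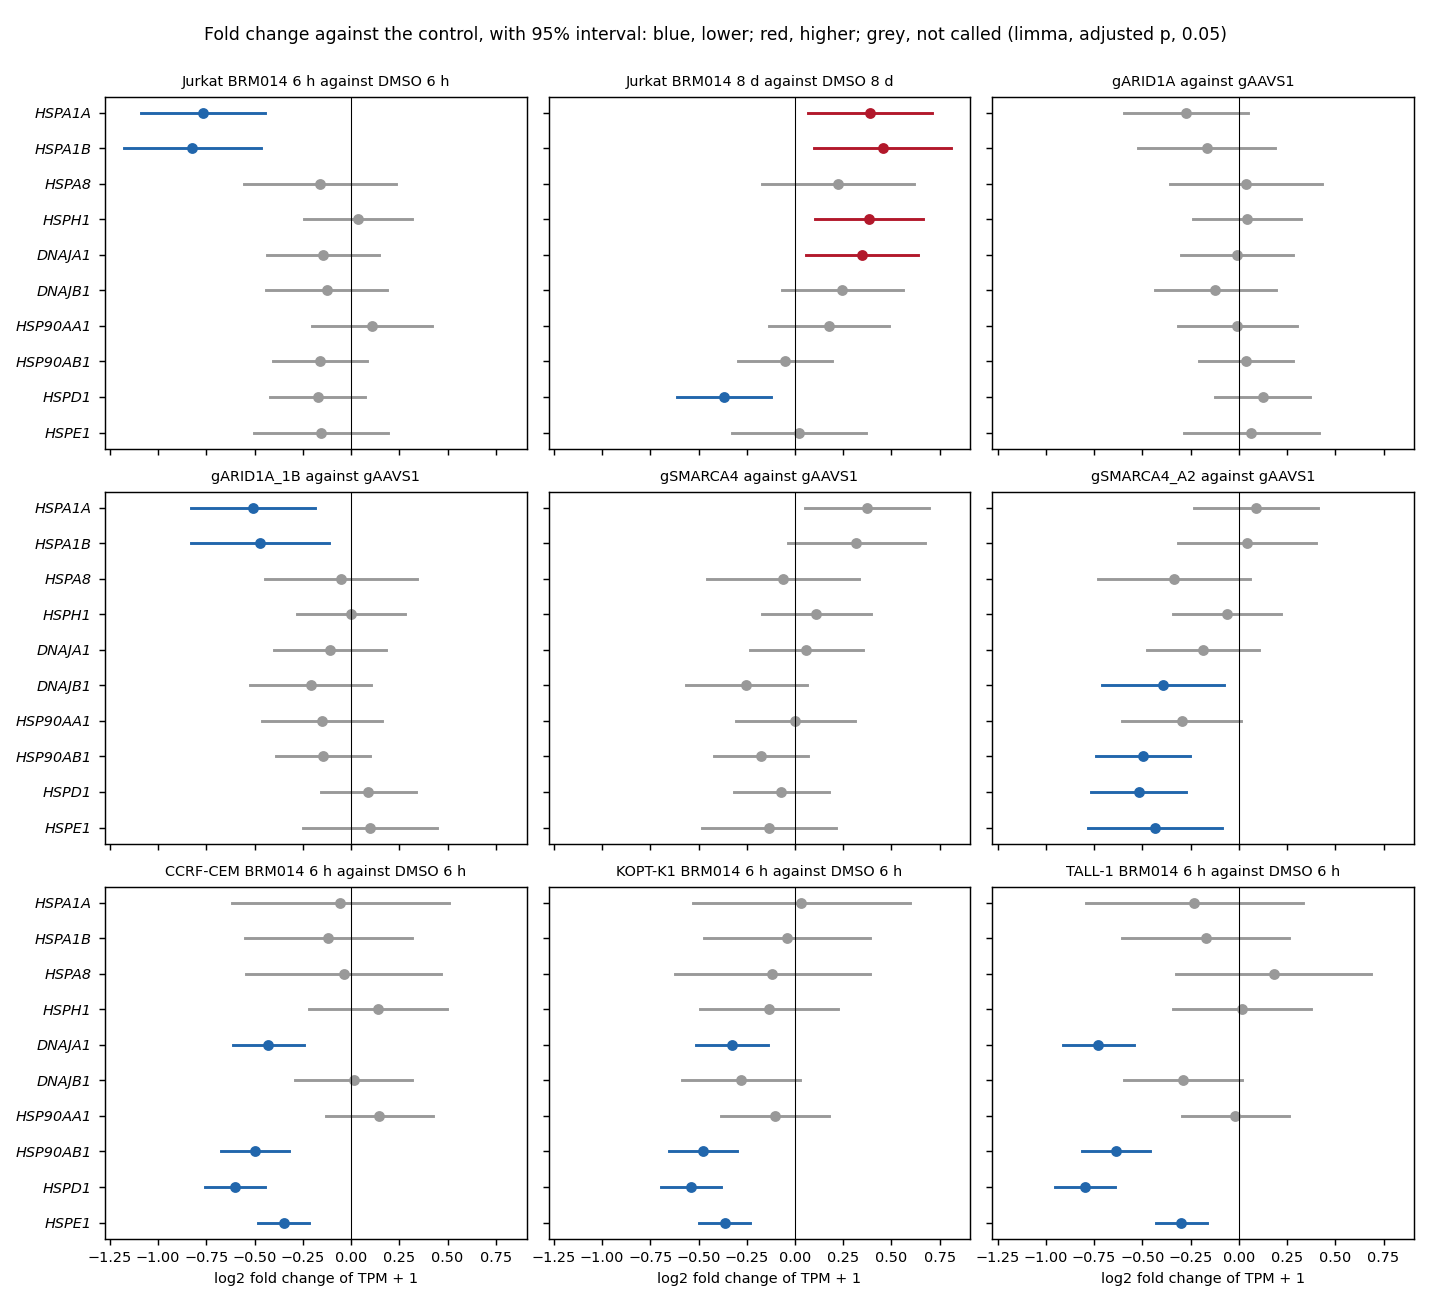
Log2 fold change of the 10 genes in the 9 comparisons with a control, with 95% intervals. Where the adjusted p was under 0.05 points are blue (lower) or red (higher), and the others are grey. DNAJA1, HSP90AB1, HSPD1 and HSPE1 are blue in all 3 lines of the second table. HSPA1A and HSPA1B are blue for BRM014 at 6 h and gARID1A_1B in Jurkat. Comparisons with gAAVS1 share its 3 libraries.

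In CCRF-CEM, KOPT-K1 and TALL-1, 6 h of BRM014 lowered the same 4 members, DNAJA1, HSP90AB1, HSPD1 and HSPE1. The fit without a replicate block called no other. The 4 of 10 compare with 20.9%, 15.2% and 19.3% of all genes lower in the 3 lines, and with 49.8%, 38.1% and 45.9% called in either direction. In each line the treated libraries of these 4 genes did not overlap with DMSO. Of all 10 members 4 did not overlap in CCRF-CEM, 5 in KOPT-K1 and 7 in TALL-1, against 50.6%, 52.5% and 56.1% of all genes. Each of the 4 was called lower in every line, and leaving out any library of a comparison left 4 members called. Of these 4 genes, 3 (HSP90AB1, HSPD1 and HSPE1) were also lower in Jurkat cells with gSMARCA4_A2. After 6 h of BRM014 in Jurkat none of the 4 was called without a replicate block, and all 4 were called lower with it. The difference between Jurkat and the other lines was not tested, because table, RNA extraction and library kit differ with the line.

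Of the 10 members HSPD1 changed most in each of the 3 lines. It went from 1359, 1530 and 1380 TPM to 898, 1011 and 901 TPM in CCRF-CEM, from 1491, 1467 and 1309 TPM to 982, 1046 and 907 TPM in KOPT-K1, and from 752, 738 and 720 TPM to 426, 453 and 392 TPM in TALL-1. It fell by 0.60 in CCRF-CEM (SE 0.07, adjusted p = 7.1e-06), by 0.54 in KOPT-K1 (SE 0.07, adjusted p = 3.1e-05) and by 0.80 in TALL-1 (SE 0.07, adjusted p = 3.7e-07). HSPE1 fell less, by 0.35 (SE 0.06, adjusted p = 0.00024), 0.36 (SE 0.06, adjusted p = 0.00025) and 0.30 (SE 0.06, adjusted p = 0.00095) in the same order. Its libraries held 1204, 1196 and 1306 TPM with DMSO and 915, 1004 and 987 TPM with BRM014 in CCRF-CEM, and 879, 866 and 948 TPM and 724, 753 and 709 TPM in TALL-1. The 2 subunits work in 1 complex, and the ratio of HSPD1 to HSPE1 in TPM was 1.15 ± 0.11 with DMSO and 0.967 ± 0.049 with BRM014 in CCRF-CEM, 0.848 ± 0.021 and 0.751 ± 0.010 in KOPT-K1, and 0.822 ± 0.055 and 0.581 ± 0.025 in TALL-1.

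HSP90AB1 went from 2268, 2513 and 2492 TPM to 1530, 1778 and 1859 TPM in CCRF-CEM, from 2606, 2573 and 2167 TPM to 1863, 1811 and 1599 TPM in KOPT-K1, and from 1868, 1899 and 1995 TPM to 1228, 1223 and 1253 TPM in TALL-1. It fell by 0.50 (SE 0.08, adjusted p = 0.00014), 0.48 (SE 0.08, adjusted p = 0.00029) and 0.64 (SE 0.08, adjusted p = 1.4e-05). HSP90AA1, the stress-responsive HSP90, stood at 0.15 (interval -0.13 to 0.42), -0.10 (interval -0.38 to 0.18) and -0.02 (interval -0.30 to 0.26) and was called in none of the 3.

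The ratio of HSP90AA1 to HSP90AB1 in TPM was chosen for a closer look after its values were seen. It was 1.28 ± 0.06 with DMSO and 1.55 ± 0.14 with BRM014 in Jurkat at 6 h, 2.26 ± 0.34 and 3.57 ± 0.84 in CCRF-CEM, 1.14 ± 0.04 and 1.48 ± 0.05 in KOPT-K1, and 1.68 ± 0.13 and 2.59 ± 0.35 in TALL-1. It was also higher with BRM014 at 8 d in Jurkat (1.24 ± 0.03 against 1.06 ± 0.11), in gSMARCA4 (1.24 ± 0.04) and in gSMARCA4_A2 (1.25 ± 0.04) than in their controls (gAAVS1, 1.09 ± 0.03). In these 7 of 9 comparisons the groups did not overlap, and in gARID1A (1.06 ± 0.02) and gARID1A_1B (1.09 ± 0.03) they did. A two-sided exact permutation test of 3 against 3 cannot go below p = 0.10, the value reached in each of the 7, so none passes a threshold of 0.05 (adjusted p = 0.13 over 9 tests).

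DNAJA1, a farnesylated J-domain partner of HSP70, was the 1 member whose response was called as different between lines in the fit without a replicate block. It went from 798, 908 and 684 TPM to 573, 646 and 548 TPM in CCRF-CEM, from 713, 721 and 658 TPM to 541, 591 and 535 TPM in KOPT-K1, and from 486, 493 and 457 TPM to 287, 299.6 and 278 TPM in TALL-1. It fell by 0.43 (SE 0.09, adjusted p = 0.00074), 0.33 (SE 0.09, adjusted p = 0.0074) and 0.73 (SE 0.09, adjusted p = 5.6e-06). The effect in TALL-1 minus that in KOPT-K1 was -0.40 (SE 0.12, adjusted p = 0.029), and this was the only member called in that difference, against 21.4% of all genes. It lost its call in 6 of 12 fits with 1 library left out, with an adjusted p of 0.055 to 0.073. The effect in TALL-1 minus that in CCRF-CEM called no member, against 20.4% of all genes (limma, 1 member, DNAJA1, at an unadjusted p under 0.05, and 0 by limma-voom), nor did KOPT-K1 minus CCRF-CEM, against 18.3% (0 at an unadjusted p under 0.05, 0 by limma-voom).

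With the replicate number as a block within each line, which pairs the CCRF-CEM libraries, the differences from CCRF-CEM did call members. In KOPT-K1 minus CCRF-CEM, HSPH1 (-0.27, adjusted p = 0.0020), HSP90AA1 (-0.25, adjusted p = 0.0044) and DNAJB1 (-0.29, adjusted p = 0.0042) were called lower, 3 of 10 against 27.3% of all genes in that fit. In TALL-1 minus CCRF-CEM, DNAJB1 (-0.30, adjusted p = 0.0047), DNAJA1 (-0.30, adjusted p = 0.0069), HSPD1 (-0.20, adjusted p = 0.022) and HSP90AB1 (-0.14, adjusted p = 0.049) were called lower, 4 of 10 against 28.2% of all genes. Libraries of KOPT-K1 and TALL-1 did not meet the correlation of 0.1 set for pairing, so by that rule the block pairs 1 side of each difference.

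**Figure D4:**
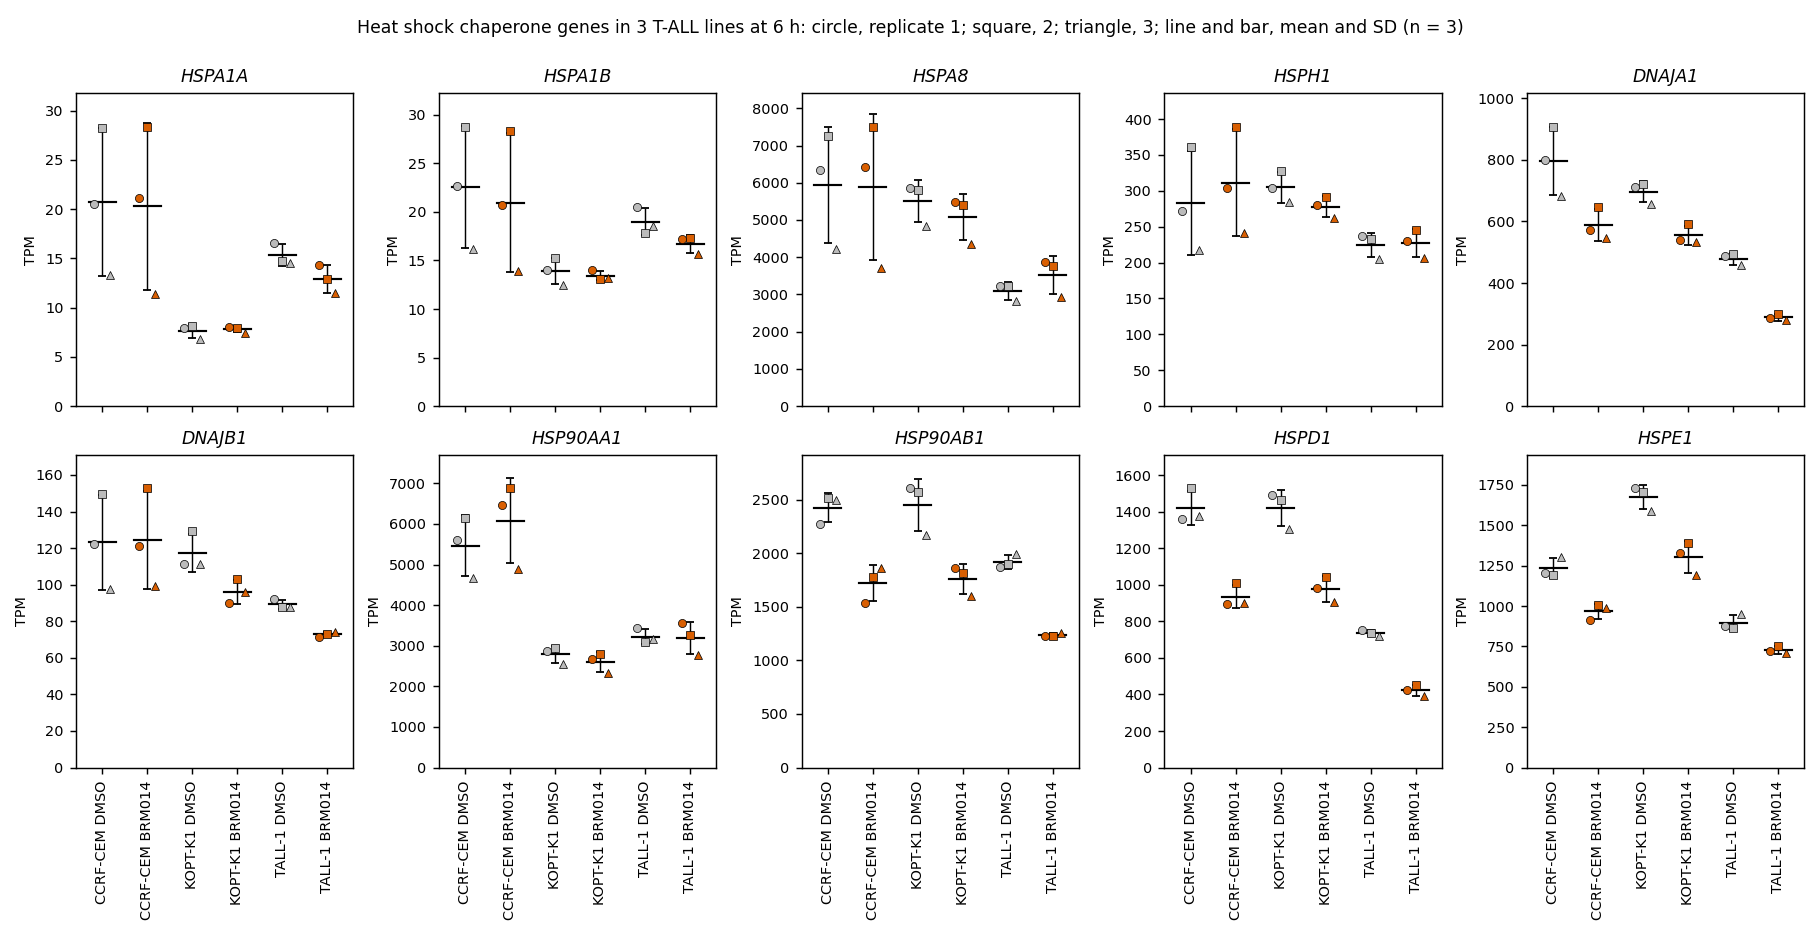
TPM of each of the 10 genes on a linear axis in the 18 libraries of CCRF-CEM, KOPT-K1 and TALL-1, by line and treatment. There is 1 point per library, with the group mean as a line and the SD as a bar. For DNAJA1, HSP90AB1, HSPD1 and HSPE1 the BRM014 points lie below the DMSO points in each line, and HSPA8 spreads widely in CCRF-CEM.

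The HSP70 genes were not called in these lines. HSPA1A had 20.5, 28.3 and 13.3 TPM with DMSO and 21.1, 28.4 and 11.4 TPM with BRM014 in CCRF-CEM, and its interval there ran from -0.62 to 0.51. In TALL-1 it had 16.6, 14.8 and 14.58 TPM and 14.3, 12.9 and 11.5 TPM with no overlap, at -0.23 (interval -0.79 to 0.33, adjusted p = 0.53), and HSPA1B did not overlap either, at -0.17 (adjusted p = 0.54). HSPA8 stood at -0.04, -0.12 and 0.18 in CCRF-CEM, KOPT-K1 and TALL-1, with SE of 0.24. HSPH1 lay between -0.13 and 0.14.

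DNAJB1 had 111, 129 and 111 TPM with DMSO and 89.8, 103 and 95.7 TPM with BRM014 in KOPT-K1, and 92.2, 88.1 and 87.7 TPM and 71.4, 73.3 and 74.0 TPM in TALL-1. It did not overlap in either line and was not called (-0.28, adjusted p = 0.14, and -0.29, adjusted p = 0.11). In CCRF-CEM the third library was the lowest for 7 of 10 members and the second the highest for 9 of 10, in both arms. With the third pair of CCRF-CEM left out of the shared fit, DNAJB1 was called lower in KOPT-K1 (adjusted p = 0.024) and TALL-1 (adjusted p = 0.017). With the replicate number of CCRF-CEM as a block, HSPH1 (0.14, adjusted p = 0.014) and HSP90AA1 (0.15, adjusted p = 0.019) were called higher there, making 6 of 10 members. This is near the 51.7% of all genes called in that fit, of which 29.9% of all genes were higher.

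The wider chaperone network was described through 8 lists of related genes, none of which holds a member. Pooled, 117 of their genes were tested in Jurkat and 116 in the remaining lines. BRM014 at 6 h raised 23 and lowered 27 in Jurkat, raised 24 and lowered 39 in CCRF-CEM, 16 and 26 in KOPT-K1, and 20 and 33 in TALL-1. Of all genes 26.8% were higher and 20.7% lower in Jurkat, 28.9% and 20.9% in CCRF-CEM, 22.9% and 15.2% in KOPT-K1, and 26.6% and 19.3% in TALL-1, so the 27 of 117 lower in Jurkat are close to the share of all genes. In gSMARCA4_A2 29 were higher and 47 lower, in gARID1A_1B 16 and 28, in gSMARCA4 20 and 24, in gARID1A 15 and 12, and after 8 d of BRM014 29 and 32. Of all genes 40.9% were higher and 21.1% lower in gSMARCA4_A2, 17.0% and 23.1% in gARID1A_1B, 25.1% and 15.8% in gSMARCA4, 7.72% and 13.2% in gARID1A, and 36.9% and 23.0% at 8 d.

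Of 17 HSP90 co-chaperones, which load and release HSP90 clients, 11 were lower and 2 higher in gSMARCA4_A2, against 21.1% of all genes lower and 40.9% higher. With BRM014 at 6 h, 4 were lower and 0 higher in Jurkat, 7 and 3 in CCRF-CEM, 4 and 1 in KOPT-K1, and 5 and 1 in TALL-1. Of all genes 20.7%, 20.9%, 15.2% and 19.3% were lower in the same order, so Jurkat lay near the background. In gSMARCA4 3 were lower and 0 higher, and at 8 d of BRM014 4 and 1, near the 15.8% and 23.0% of all genes lower. In gARID1A 1 was lower and 1 higher, and in gARID1A_1B 1 was lower and 2 higher, against 13.2% and 23.1% of all genes lower. FKBP4, an immunophilin of steroid receptor complexes, fell by 0.71 in CCRF-CEM (SE 0.12, adjusted p = 0.00016), by 0.83 in TALL-1 (SE 0.12, adjusted p = 3.8e-05) and by 0.45 in Jurkat at 6 h (SE 0.09, adjusted p = 0.00032). FKBP5, a related immunophilin, fell by 1.34 in TALL-1 (SE 0.08, adjusted p = 6.7e-09), from a mean of 68.7 to 26.6 TPM. AHSA1, which stimulates the HSP90 ATPase, fell by 0.32 in Jurkat at 6 h, 0.29 in KOPT-K1 and 0.51 in TALL-1.

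Among HSP70 partners of the cytosol, 27 were tested in each table. In Jurkat 8 rose and 9 fell after 6 h of BRM014, and 11 rose and 8 fell in gSMARCA4_A2, where 40.9% of all genes were higher. The HSP70 partners that rose there were thus near the share of all genes. DNAJB2, a J-domain protein, rose by 0.83 at 6 h and by 1.53 at 8 d of BRM014 (SE 0.08 each, adjusted p = 1.3e-08 and 3.6e-13), and by 1.42 in gSMARCA4_A2. BAG3, an HSP70 exchange factor that HSF1 induces, rose by 0.61 at 6 h and 1.17 at 8 d of BRM014, by 0.91 in gARID1A_1B and by 0.83 in gSMARCA4_A2. At 6 h of BRM014 in Jurkat, BAG3 rose and HSPA1A and HSPA1B fell in the same libraries. In the other lines BAG1, an exchange factor, fell by 0.86 in CCRF-CEM, 0.70 in KOPT-K1 and 0.47 in TALL-1.

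Chaperones of the endoplasmic reticulum were lower for 8 of 20 in Jurkat at 6 h, 10 in CCRF-CEM, 12 in KOPT-K1 and 5 in TALL-1, with 2 higher in each, against 20.7%, 20.9%, 15.2% and 19.3% of all genes lower, so that TALL-1 lay near the background. In gARID1A_1B 14 of 20 were lower and 0 higher, against 23.1% of all genes lower, and at 8 d of BRM014 in Jurkat 6 were lower and 6 higher. HSPA5, the HSP70 of that compartment, fell by 0.68 in Jurkat at 6 h (SE 0.15, adjusted p = 0.00088), by 1.39 in CCRF-CEM (401 to 159 TPM) and by 1.84 in KOPT-K1 (402 to 112 TPM), and stood at -0.17 in TALL-1 (adjusted p = 0.64). XBP1, a transcription factor of the unfolded protein response, fell by 1.02 in Jurkat at 6 h, fell by 1.51 in CCRF-CEM and fell by 1.45 in KOPT-K1. SERPINH1, a collagen chaperone, fell by 1.22 in Jurkat at 6 h (60.2 to 25.2 TPM) and by 2.06 in TALL-1 (21.8 to 4.46 TPM).

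In mitochondria, 10 of 15 chaperones and proteases were lower and 3 higher in gSMARCA4_A2, against 21.1% of all genes lower and 40.9% higher. With BRM014 at 6 h, 1 was lower and 4 higher in Jurkat, 7 and 2 in CCRF-CEM, 1 and 4 in KOPT-K1, and 6 and 3 in TALL-1. Of all genes 20.7%, 20.9%, 15.2% and 19.3% were lower and 26.8%, 28.9%, 22.9% and 26.6% higher, in the same order. The 4 higher in Jurkat and in KOPT-K1 were near these shares. HSPA9, the mitochondrial HSP70 that passes clients to HSPD1, fell by 0.25 in CCRF-CEM (SE 0.06, adjusted p = 0.0036), 0.23 at 8 d in Jurkat and 0.15 in gSMARCA4_A2, and stood at -0.08 in KOPT-K1 and -0.02 in TALL-1. LONP1, a matrix protease, fell by 0.62 in gSMARCA4_A2 and 0.54 at 8 d. HSCB, an iron-sulfur co-chaperone, rose by 0.39 in Jurkat at 6 h, 0.74 in CCRF-CEM, 0.64 in KOPT-K1 and 0.63 in TALL-1. Of the 14 subunits of the cytosolic chaperonin TRiC and its partner prefoldin, 8 were lower and 2 higher in gSMARCA4_A2, led by CCT7 (-0.50, SE 0.07, adjusted p = 9.3e-07). Of all genes 21.1% were lower and 40.9% higher there. With BRM014 at 6 h, 1 was lower and 4 higher in Jurkat, 3 and 5 in CCRF-CEM, 0 and 2 in KOPT-K1, and 4 and 6 in TALL-1. The shares of all genes are those given for the mitochondrial genes, and the 4 higher in Jurkat were near the 26.8% there. PFDN2 rose in all 4 lines at 6 h, by 0.35 to 0.60.

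Of the regulators, HSF1 itself was higher with BRM014 in Jurkat at 6 h (0.20, SE 0.08, adjusted p = 0.039) and 8 d (0.22, adjusted p = 0.020), in CCRF-CEM (0.53, SE 0.06, adjusted p = 5.1e-06) and in KOPT-K1 (0.27, adjusted p = 0.0028), and not called in TALL-1 (-0.05, adjusted p = 0.54) or in any guide group. HSF2 was called in KOPT-K1 (0.27, adjusted p = 0.038) and in no other of the 9 comparisons. HDAC6, a deacetylase of HSP90, rose at 6 h by 0.84 in Jurkat, 1.10 in CCRF-CEM, 0.91 in KOPT-K1 and 0.76 in TALL-1. Among other stress genes bound by HSF1, HMOX1, which degrades haem, rose by 2.06 at 8 d of BRM014 (0.668 to 5.95 TPM) and by 2.21 in gSMARCA4_A2 (0.902 to 7.73 TPM). Of the small heat shock proteins, 3 were tested in Jurkat and 4 in the remaining lines, and HSPB1 fell by 0.28 in CCRF-CEM and 0.37 in TALL-1.

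How the members varied across libraries is a description over points that share depth, kit and group. Over the 27 Jurkat libraries HSPA8 followed DNAJA1 (Pearson's r 0.95) and HSP90AA1 (0.95), and HSPD1 followed HSPE1 (0.88), while HSPA1A followed HSPA1B (0.98) but neither HSPD1 (0.01) nor HSP90AB1 (0.22). Over the 27 Jurkat libraries the genes whose log2(TPM + 1) followed the members' standardized mean most closely, out of 12166 candidates, were STIP1 (Pearson's r 0.94), the adaptor between HSP70 and HSP90, CHORDC1 (0.93), an HSP90 co-chaperone, SUMO3 (0.91), PNO1 (0.89) and DHX9 (0.89). Over the 18 libraries of the other lines they were ARL2BP (0.97), UBE2D3 (0.94), TRA2B (0.94), SUB1 (0.93) and CD3D (0.93), out of 11049. In all 5 guide groups replicate 2 was the highest library for 8 to 10 of the 10 members. It was the highest for 28.6% to 46.6% of all genes in those groups.

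Reads of overlapping genes could enter some of these values. DNAJB1 overlaps TECR on the opposite strand (143 to 249 TPM in Jurkat and 149 to 271 in the remaining lines), and the Jurkat kit does not mark strand. In the GENCODE annotation HSPD1 overlaps HSPE1, HSPE1-MOB4 and MOB4, and HSP90AA1 overlaps WDR20, also on opposite strands. HSPE1 shares exons with the readthrough gene HSPE1-MOB4 (82.2 to 160 TPM in Jurkat and 89.1 to 178 in the remaining lines), and HSPA8 holds small nucleolar RNA genes in its introns. HSPA6 and HSPA1L, related HSP70 genes, reached at most 2.59 and 0.539 TPM. The share of these overlaps in the differences was not tested.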

How the data were processed

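RNA of 45 libraries was deposited by the authors as TPM in 2 tables, 27 Jurkat libraries and 18 of the other lines. The submitters' processing notes name HISAT2 2.2.1, featureCounts 2.0.3, DESeq2 1.38.2 and hg38, with no role given. Per the labels, Jurkat RNA was extracted on a Maxwell instrument and made into libraries with NEBNext Ultra II (non-directional), while RNA of the other lines went through RNeasy columns and a directional kit. TPM times the deposited gene length gave whole reads for 100% of values (within 0.01), from which depth was taken.

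Rows reaching 1 TPM in 3 or more libraries were fitted with limma 3.58.1 in R 4.3.3 on log2(TPM + 1), in 1 fit per table with every group, eBayes with trend and robust options, and Benjamini-Hochberg adjustment over all genes tested (threshold 0.05). The fits held 17936 genes with 18 residual degrees of freedom and 16241 genes with 12. They were tested on simulated data first. Members and lists were chosen with earlier results of these data known. All members are named, and up to 3 called genes with the largest change per related list and comparison, with HSF1, HSF2, HSPA5 and HSPA9 always. Libraries were taken as paired by replicate number where all 3 correlations of deviations, from the data, were above 0.1. CCRF-CEM alone met this (0.12, 0.29 and 0.45). Yet 3 of 3 numbers matched best with themselves in Jurkat at 6 h (0.17, 0.30 and 0.091), gARID1A_1B and KOPT-K1, and 2 of 3 in CCRF-CEM. The labels do not say whether equal numbers share a culture, so pairing is not settled there. Alternatives were a pseudocount of 0.1, other filters, rescaling, limma-voom on recovered reads, each library left out and others. Where the labels do not say that replicates are separate cultures beyond calling them biological, p-values measure the spread between these libraries. Promoter letters come from RefSeq, GRCh38.p14.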

Additional observations from a re-analysis of the deposited data

Results flagged for a closer look

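Of 40 tests of a difference between 2 effects over the members, 4 passed an adjusted p of 0.05. The BRM014 effect in Jurkat at 8 d was above that at 6 h for HSPA1A by 1.16 (SE 0.22), for HSPA1B by 1.28 (SE 0.24) and for DNAJA1 by 0.49 (SE 0.20). HSPA1A and HSPA1B kept this call without DMSO 8 d replicate 1 and DNAJA1 did not. The BRM014 effect on DNAJA1 in TALL-1 was below that in KOPT-K1, at -0.40 (SE 0.12).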

How the results depend on the processing

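Counts are members called of 10. Leaving out 1 library at a time gave 2 to 2 for Jurkat BRM014 at 6 h, 2 to 6 at 8 d, 2 to 5 for 8 d minus 6 h, 0 to 0 for gARID1A, 1 to 2 for gARID1A_1B, 0 to 1 for gSMARCA4, 2 to 4 for gSMARCA4_A2, 0 to 0 for gARID1A_1B against gARID1A, 1 to 2 for gSMARCA4_A2 against gSMARCA4 and 4 to 5 against gARID1A_1B. It gave 4 to 4 in CCRF-CEM, KOPT-K1 and TALL-1, 0 to 0 for KOPT-K1 minus CCRF-CEM, 0 to 1 for TALL-1 minus CCRF-CEM and for TALL-1 minus KOPT-K1, 7 to 10 for DMSO 8 d against 6 h, and 3 to 5, 6 to 9 and 6 to 8 for DMSO in KOPT-K1 against CCRF-CEM, TALL-1 against CCRF-CEM and TALL-1 against KOPT-K1. HSPE1 at 8 d ran from -0.30 (reversed, without DMSO 8 d replicate 1) to 0.22 (without DMSO 8 d replicate 3).

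A filter of 5 TPM, which removes HSPA1A and HSPA1B from the Jurkat table, gave 0 at 6 h, 3 at 8 d, 0 in gARID1A_1B, 1 for 8 d minus 6 h and 3 for gSMARCA4_A2 against gARID1A_1B. No filter gave 2 at 8 d, 1 in gARID1A_1B, 2 in gSMARCA4_A2, 1 for gSMARCA4_A2 against gSMARCA4 and 0 for TALL-1 minus KOPT-K1. HSPA1A and HSPA1B summed, which makes them 1 gene, gave 1 at 6 h and 1 in gARID1A_1B. Median-ratio rescaling gave 1 at 8 d and 7 in gSMARCA4_A2, and limma-voom 1 in gSMARCA4. A fit of the compared groups alone gave 2 at 8 d (47.9% of all genes called), 4 in gARID1A_1B (40.3%), 4 in gSMARCA4 (39.5%) and 7 in gSMARCA4_A2 (63.4%). It gave 6 for gSMARCA4_A2 against gSMARCA4 (41.1%) and 3 for DMSO 8 d against 6 h (11.5%). Leaving DMSO 8 d replicate 1 out of the Jurkat fit was chosen after seeing the data, as was limma-voom. That fit gave 1 in gSMARCA4 (43.6% of all genes called), 7 in gSMARCA4_A2 (63.7%) and 6 against gSMARCA4 (42.0%). For these the cause was not tested. A pseudocount of 0.1 and eBayes without trend kept all 200 single-gene results on their side of the threshold.

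With a replicate block the counts were 8 for Jurkat at 6 h (47.8% of all genes called) and 0 at 8 d (41.3%). They were 1 for gARID1A (22.2%), 8 for gARID1A_1B (43.4%), 5 for gSMARCA4 (40.8%) and 7 for gSMARCA4_A2 (65.5%). KOPT-K1 had 8 (46.0%) and TALL-1 had 7 (51.5%). Between guide groups they were 2 for gARID1A_1B against gARID1A (15.1%), 10 for gSMARCA4_A2 against gSMARCA4 (38.7%) and 8 against gARID1A_1B (64.1%). Differences between lines gave 3 for KOPT-K1 minus CCRF-CEM (27.3%), 4 for TALL-1 minus CCRF-CEM (28.2%) and 6 for TALL-1 minus KOPT-K1 (33.3%). Over all genes the numbers did not meet the correlation of 0.1 for pairing outside CCRF-CEM (lowest correlations of -0.084 to 0.091), although among the members replicate 2 was the highest library for 8 to 10 of 10 in every guide group. No paired analysis was possible for the 4 DMSO comparisons, because the groups are separate cultures.

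Median-ratio rescaling also moved the share of higher genes among all calls from 61.6% to 49.1% at 8 d, 37.0% to 50.5% in gARID1A, 61.4% to 51.0% in gSMARCA4, 65.9% to 45.5% in gSMARCA4_A2, 58.0% to 45.8% in CCRF-CEM, 60.1% to 45.4% in KOPT-K1, 68.3% to 38.9% for gSMARCA4_A2 against gSMARCA4 and 75.5% to 45.3% against gARID1A_1B. Leaving out mitochondrially encoded genes moved it from 47.1% to 60.1% for DMSO 8 d against 6 h and 49.5% to 66.3% for gARID1A_1B against gARID1A.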
